A study of Mus musculus with 25 samples.

Results

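The MHC class II presentation genes examined here are 7 genes, H2-Aa, H2-Ab1, H2-Eb1, H2-DMa, H2-DMb1, Cd74 and Ciita. They are among the 24411 genes counted by RNA-seq in 25 mouse macrophage samples of 9 conditions. They were listed by symbol and not by a cutoff on measured values, but with earlier results of these data known. Each of the 7 symbols has a row in every file. The 21 BMDM samples, macrophages grown from C57BL/6 bone marrow with 25 ng/ml of the growth factor M-CSF over 4 days, form 7 groups of 3. These are untreated control BMDMs, BMDMs given 100 U/ml IFN-γ and 100 ng/ml LPS with a labelled time of 1, 4, 12 or 24 h (IFN-LPS), and BMDMs given 10 ng/ml of either IL-4 or IL-13 for 12 h. The 4 samples of RAW264.7, an established mouse macrophage line, form 2 groups of 2, control and 100 ng/ml LPS for 4 h. All BMDM comparisons use the same control, whose label gives a culture time of 4 h. The study describes the IFN-γ as a priming step but gives no length for it, and BMDMs given IFN-γ or LPS alone were not analysed here, so the parts that IFN-γ and LPS play cannot be told apart. The study speaks of biological replicates and, for BMDMs, of independent RNA samples. The sources used here do not say whether these came from separate animals or cultures. The p-values thus measure the spread between these samples, which may be technical.

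MHC class II molecules are pairs of an α and a β chain that carry peptides from endosomes to the cell surface, where CD4+ T cells read them. The invariant chain, Cd74, holds the new pair and takes it to the endosome, where the DM pair (H2-DMa and H2-DMb1) removes the remaining stretch of Cd74 so that a peptide can bind. Ciita is the co-activator on which transcription of these genes rests. It does not bind DNA itself but sits on factors bound at their promoters (RFX at the X box, NF-Y at the Y box), and IFN-γ is its best known inducer in macrophages. C57BL/6 mice lack a working Eα gene, so H2-Eb1 has no partner chain at their cell surface, and its pseudogene H2-Ea-ps stood at 0 counts in all 25 samples.

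In the mm10 (GRCm38) genome with GENCODE M21 gene models, the 5 H2 genes lie close together on chromosome 17, with H2-DMa at chr17:34119541-34139101, H2-DMb1 at chr17:34153072-34160230, H2-Ab1 at chr17:34257689-34269419, H2-Aa at chr17:34282744-34287823 and H2-Eb1 at chr17:34305867-34316674. H2-Aa is on the minus strand and the other 4 are on the plus strand. Promoter sequence from RefSeq (GRCm38), 250 bases before to 50 bases after a start site, was at hand for 4 of the 7 members, H2-Aa, H2-Eb1, H2-DMa and H2-DMb1. The stretches below are shown because they hold matches to the X and Y boxes, the kind of site that Ciita is known to act through. Capitals mark GNAAC, the core of the X box, and ATTGG, the Y box (CCAAT read from the other strand), and each stretch is written 5′ to 3′ on the strand of its gene.
H2-Aa, chr17:34287861-34287912, minus strand: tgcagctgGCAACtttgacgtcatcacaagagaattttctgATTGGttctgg
H2-Eb1, chr17:34305768-34305818, plus strand: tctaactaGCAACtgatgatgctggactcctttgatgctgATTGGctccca
H2-DMb1, chr17:34153089-34153140, plus strand: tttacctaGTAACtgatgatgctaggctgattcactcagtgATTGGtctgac

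The ATTGG match starts 48 bases before the RefSeq start site in H2-Aa, 59 in H2-Eb1 and 61 in H2-DMb1. The GENCODE model of H2-DMb1 starts further upstream, so that its stretch lies within that model, while the other stretches lie before their gene models. The gap between GNAAC and ATTGG was 28 bases in H2-Aa and H2-DMb1 and 27 in H2-Eb1. Neither of the 2 windows of H2-DMa held the pair with a gap of 25 to 30 bases, and 1 of them held ATTGG alone. Of all 32851 promoter windows of this length, 1.04% held the pair on either strand and 37.4% held ATTGG alone or within the pair. The spelling and the gap were chosen after these promoters had been looked at, and GNAAC and ATTGG do not overlap in the pair. The same pair stood in the windows of H2-Oa, H2-Ob and H2-Eb2, class II genes that had few counts in these macrophages (given below). A match is a description of the sequence and no evidence of binding.

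Levels are given as CPM, the counts scaled to a common total, out of the counts on genes without Rn45s, a ribosomal precursor that took 20.1% to 39.8% of the counts, which left 1502618 to 2532496 counts per sample. The class II genes together held 0.0114% to 0.0120% of these counts in the control BMDMs and 0.574% to 0.747% in the IFN-LPS BMDMs. They held 0.0159% to 0.0244% with IL-4 or IL-13 and 0.0352% to 0.0405% in RAW264.7. Fold changes are from edgeR's quasi-likelihood test with TMM scaling, and a call needed an adjusted p (FDR, over all genes tested) no higher than 0.01. It also needed a change on the log2 scale of 1.5 or more in comparisons with an IFN-LPS group, 0.7 or more among the control and interleukin groups, and 2 or more for RAW264.7 against its own or the BMDM control. The 8 macrophage markers were present in all BMDM samples, but their summed level moved with IFN-LPS. It was 24719 to 26578 CPM in the control, 16682 to 17422 CPM at 1 h, 12953 to 14068 CPM at 4 h, 14998 to 17198 CPM at 12 h and 26202 to 29477 CPM at 24 h. The 7 dendritic cell markers summed to 144 to 184 CPM in the control, 138 to 177 CPM at 1 h and 49.7 to 59.6 CPM at 24 h. The part of these shifts in the class II levels was not tested. The 6 B cell markers summed to at most 1.92 CPM in any sample, and Ms4a1 and Cr2 were at 0 in all of them. Of the dendritic cell markers, Flt3 was at or under 1 count in every BMDM sample, while Itgax stood at 168 ± 21.3 CPM (SD, n = 3) in the control BMDMs and made up most of the sum there. Col1a1, a fibroblast gene, stood at 8.90 to 28.0 CPM as a mean over the BMDM groups and at 0 in RAW264.7. The 3 fibroblast markers, Col1a1 among them, summed to 65.5 to 90.8 CPM in the control, 19.3 to 47.0 CPM at 12 h of IFN-LPS and 51.8 to 94.4 CPM with IL-13. In bulk RNA, fewer cells of a type and less RNA per cell cannot be told apart.

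**Figure D1:**
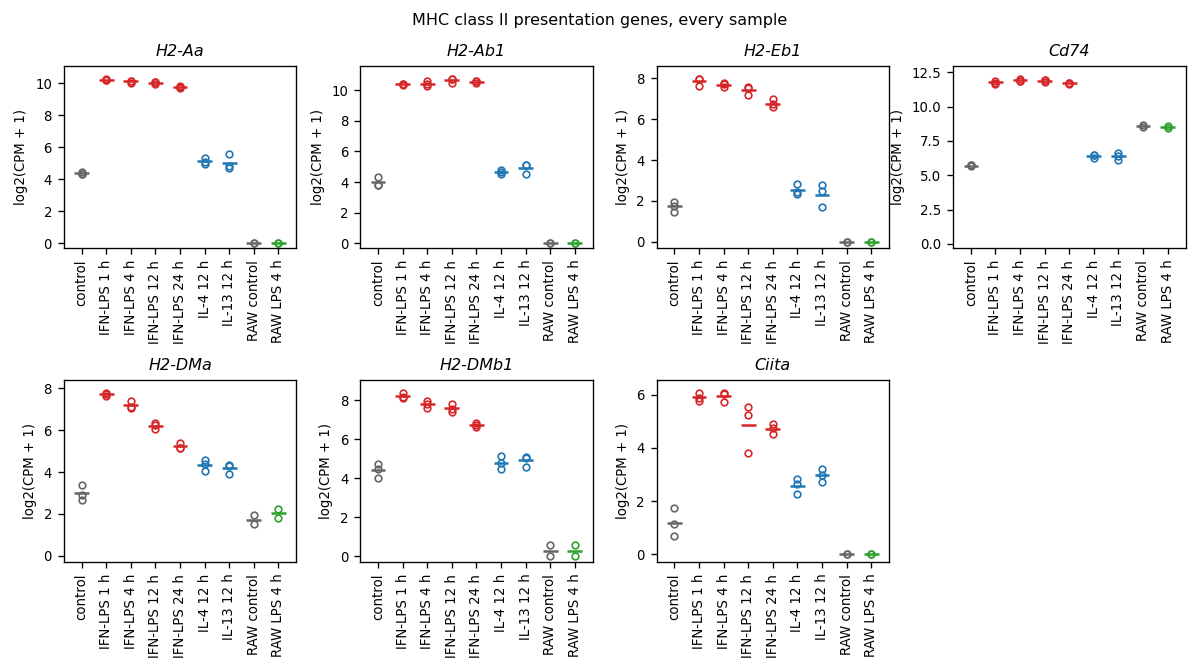
Level of each class II gene in all 25 samples, as log2(CPM + 1) on the vertical axis, by condition on the horizontal axis (grey, control; red, IFN-LPS BMDMs; blue, IL-4 or IL-13 BMDMs; green, RAW264.7 with LPS). Circles are samples and bars are group means; all IFN-LPS samples lie above all other BMDM samples for each gene, and in RAW264.7 only Cd74 stands above the control BMDMs.

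Control BMDMs expressed every class II gene at a low level. Per kilobase of the principal transcript, Cd74 was the highest, with a level of 36.0 ± 1.2 CPM per kb (SD, n = 3), followed by H2-Aa at 17.3 ± 1.0, H2-DMb1 at 14.6 ± 3.7 and H2-Ab1 at 12.3 ± 2.6. The samples of H2-DMb1 overlapped those of both H2-Aa and H2-Ab1, while H2-Aa, at 16.5 to 18.4 CPM per kb, lay above H2-Ab1, at 10.8 to 15.4. H2-DMa stood at 4.27 ± 1.23 CPM per kb, H2-Eb1 at 1.41 ± 0.34 and Ciita at 0.228 ± 0.147. In all 4 IFN-LPS groups the order was Cd74, H2-Ab1, H2-Aa, H2-DMb1, H2-Eb1, H2-DMa and Ciita, so that H2-Ab1 had moved from the fourth to the second place. H2-Ab1 and H2-Aa overlapped at 1 h, where the lowest H2-Ab1 sample was at 1075 CPM per kb and the highest H2-Aa sample at 1084, and lay apart at 4, 12 and 24 h. H2-Eb1 and H2-DMa overlapped at 1 h, at 115.7 to 149.5 and 119.9 to 132.6 CPM per kb, and H2-DMb1 and H2-Eb1 at 24 h, at 68.9 to 80.2 and 56.3 to 74.7 CPM per kb.

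All 7 genes rose in the IFN-LPS BMDMs at each of the 4 times against the control. Of all 9568 genes tested, 5.04% were called higher at 1 h and 11.4% at 4 h, followed by 8.87% at 12 h and 7.93% at 24 h. No class II gene was called lower, against 2.08%, 11.4%, 8.42% and 6.93% of all genes. The median log2 fold change of the 7 genes was 6.11, 6.34, 6.04 and 5.67 in order of time, while the median over all genes lay between -0.08 and 0.02. For each gene and time, every IFN-LPS sample lay above every control sample. H2-Eb1, H2-DMa and Ciita, with few control counts, had enough counts for the test only through the IFN-LPS samples. Leaving out any single sample kept all 7 called at all 4 times.

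The gene of the α chain, H2-Aa, stood at 20.8, 19.1 and 18.6 CPM in the control samples and at 1162, 1173 and 1222 CPM at 1 h. It stood at 1133, 1139 and 1036 CPM at 4 h, at 1069, 1085 and 964 CPM at 12 h and at 814, 889 and 865 CPM at 24 h. All 12 stimulated samples were thus more than an order of magnitude above the controls, with the highest mean CPM at 1 h and the lowest at 24 h. On the TMM scale of the fit the log2 fold change against control was highest at 4 h, with 6.11 ± 0.12 (SE) at 1 h, 6.34 ± 0.12 at 4 h, 6.04 ± 0.12 at 12 h and then 5.67 ± 0.12 at 24 h. The order of 1 and 4 h thus depends on the scaling.

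H2-Ab1, which encodes the β chain that pairs with H2-Aa, stood at 13.1, 13.1 and 18.6 CPM in the control samples. Its level was 1303, 1346 and 1340 CPM at 1 h, 1505, 1373 and 1246 CPM at 4 h, 1687, 1680 and 1401 CPM at 12 h and 1393, 1539 and 1507 CPM at 24 h. Unlike H2-Aa, its 24 h samples lay above all its 1 h samples. Against control, H2-Ab1 was higher by 6.65 ± 0.13 (SE) on the log2 scale at 1 h, by 7.04 ± 0.13 at 4 h, by 7.03 ± 0.13 at 12 h and by 6.84 ± 0.13 at 24 h.

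H2-Eb1, the β chain that has no α partner in this strain, rested on 4, 3 and 5 counts in the control samples (2.38, 1.79 and 2.91 CPM). It stood at 247, 250 and 193 CPM at 1 h, at 207, 219 and 190 CPM at 4 h, at 190, 182 and 144 CPM at 12 h and at 106, 125 and 94.0 CPM at 24 h. Its log2 fold change was 6.74 ± 0.22 (SE) at 1 h and 6.92 ± 0.22 at 4 h, then 6.44 ± 0.23 at 12 h and 5.69 ± 0.24 at 24 h, so that the fit again put 4 h above 1 h. The change lay between those of H2-Aa and H2-Ab1 at 24 h although its level was several-fold lower. The few control counts make the size of the change less certain than for the other chains.

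The invariant chain gene Cd74, on chromosome 18, had the highest level of the 7 genes in all conditions. It stood at 51.7, 51.8 and 48.9 CPM in the control samples and at 3295, 3380 and 3827 CPM at 1 h. Its level was 4145, 3785 and 3668 CPM at 4 h, 3873, 3961 and 3582 CPM at 12 h and 3264, 3348 and 3301 CPM at 24 h. Against control its log2 fold change was 6.29 ± 0.11 (SE) at 1 h and 6.77 ± 0.11 at 4 h, then 6.53 ± 0.11 at 12 h and 6.24 ± 0.11 at 24 h (adjusted p of 2.5e-42 at 4 h, edgeR). Cd74 thus stayed within a narrow range from 1 to 24 h.

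The DM genes rose less and had the steepest decline of level. H2-DMa stood at 5.35, 6.55 and 9.31 CPM in the control samples (9, 11 and 16 counts). It stood at 199, 215 and 220 CPM at 1 h, at 166, 139 and 134 CPM at 4 h, at 74.6, 81.1 and 65.9 CPM at 12 h and at 40.5, 34.5 and 34.7 CPM at 24 h. The 4 groups did not overlap, and the mean at 24 h was 17.3% of that at 1 h. The 24 h libraries also differ from those of 1 h in a library property given below, as for every comparison of 24 h with 1 h. Its log2 fold change against control went from 5.07 ± 0.17 (SE) at 1 h and 4.88 ± 0.18 at 4 h to 3.67 ± 0.19 at 12 h and 2.57 ± 0.21 at 24 h.

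H2-DMb1, the partner of H2-DMa, stood at 25.6, 20.9 and 15.1 CPM in the control samples. It stood at 276, 329 and 289 CPM at 1 h, at 244, 223 and 194 CPM at 4 h, at 188, 218 and 169 CPM at 12 h and at 96.8, 113 and 105 CPM at 24 h. Its mean at 24 h was 35.2% of that at 1 h, and its log2 fold change against control was 4.04 ± 0.14 (SE) at 1 h and 2.57 ± 0.16 at 24 h. The near-identical gene H2-DMb2 lies next to it, and reads that match both were not counted, so the level of H2-DMb1 is uncertain. H2-DMb2 itself had a mean of at most 2.10 CPM in any group.

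Ciita, on chromosome 16, had 1, 2 and 4 counts in the control samples (0.595, 1.19 and 2.33 CPM). It stood at 53.2, 58.6 and 66.1 CPM at 1 h, at 66.6, 65.1 and 52.4 CPM at 4 h, at 36.8, 45.1 and 13.0 CPM at 12 h and at 28.8, 25.7 and 22.1 CPM at 24 h. The groups at 1 and 4 h overlapped and lay above all samples at 12 and 24 h. Replicate 3 at 12 h, with 27 counts against 72 and 79, stood apart from the other two of its group and was the lowest stimulated sample. Ciita was higher than in the control by a log2 fold change of 5.54 ± 0.45 (SE) at 1 h and 5.92 ± 0.44 at 4 h, then 4.72 ± 0.51 at 12 h and 4.35 ± 0.53 at 24 h, with adjusted p of 1.5e-09, 1.3e-10, 6.4e-08 and 3.7e-07 (edgeR).

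**Figure D2:**
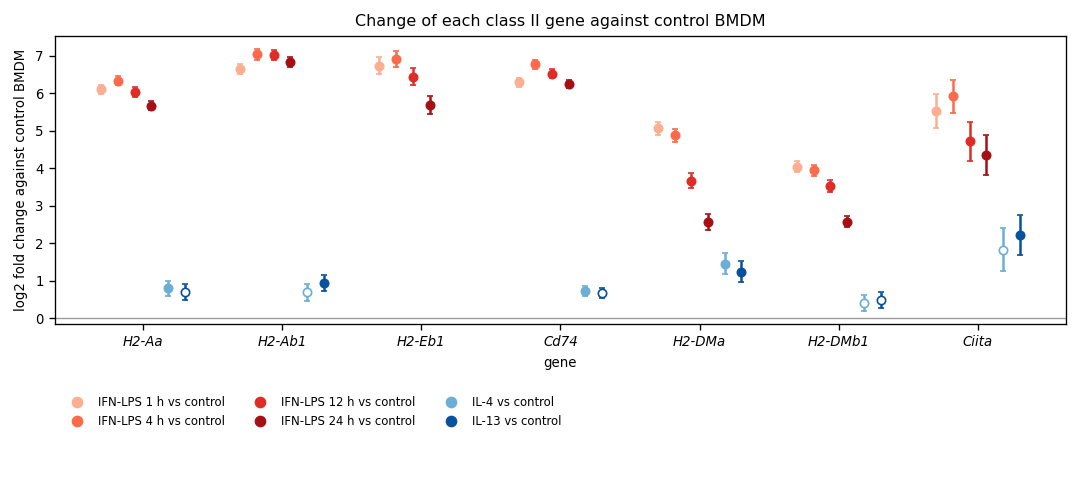
Log2 fold change of each class II gene against control BMDMs (vertical axis) for IFN-LPS at 1, 4, 12 and 24 h (red shades) and IL-4 and IL-13 at 12 h (blue shades), with SE as bars. Filled points passed the thresholds and open points did not (H2-Eb1 was not tested with IL-4 and IL-13); the IFN-LPS changes lie between 2.57 and 7.04 and those of the interleukins between 0.41 and 2.22.

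Between successive times none of the 7 genes changed by the threshold of 1.5, against 14.0% of all genes called in either direction from 1 to 4 h, 9.66% from 4 to 12 h and 1.29% from 12 to 24 h. Smaller differences passed the adjusted p of 0.01 alone. From 1 to 4 h these were H2-Ab1, with a log2 difference of 0.38 ± 0.09 (SE), and Cd74, with 0.48 ± 0.08, where 19.8% of all genes were higher by this measure. From 4 to 12 h, 5 genes were lower, namely H2-Aa (-0.31 ± 0.08), H2-Eb1 (-0.48 ± 0.11), H2-DMa (-1.21 ± 0.12), H2-DMb1 (-0.42 ± 0.11) and Ciita (-1.20 ± 0.24), where 19.2% of all genes were lower. From 12 to 24 h, 5 were again lower, namely H2-Aa (-0.36 ± 0.08), H2-Eb1 (-0.75 ± 0.12), H2-DMa (-1.10 ± 0.13), H2-DMb1 (-0.95 ± 0.11) and Cd74 (-0.29 ± 0.08), where 8.90% of all genes were lower. H2-Ab1 differed by -0.01 ± 0.09 from 4 to 12 h and by -0.18 ± 0.09 from 12 to 24 h, neither past the threshold. These small steps depend on the scaling. Without TMM the median of all genes moved from -0.03 to -0.37 on the log2 scale from 1 to 4 h, and the differences of H2-Aa (-0.10) and H2-Eb1 (-0.16) from 1 to 4 h and of H2-Ab1 (0.21) from 4 to 12 h changed sign.

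The ratio of 2 genes within a sample does not depend on the scaling. For each count of H2-Ab1, H2-DMa had 0.159 ± 0.006 counts (SD, n = 3) at 1 h and 0.107 ± 0.005 at 4 h, then 0.0465 ± 0.0021 at 12 h and 0.0248 ± 0.0037 at 24 h, which is 6.39-fold less at 24 h than at 1 h. The groups did not overlap. H2-DMb1 had 0.224 ± 0.018 counts per count of H2-Ab1 at 1 h and 0.0708 ± 0.0021 at 24 h, a 3.16-fold smaller ratio. The ratio of H2-Eb1 was 2.36-fold and that of Ciita 2.57-fold smaller at 24 h than at 1 h, while for the pairing chain H2-Aa the ratio went from 0.892 ± 0.020 to 0.579 ± 0.005 (1.54-fold). Cd74 moved least, from 2.63 ± 0.19 to 2.24 ± 0.09 counts per count of H2-Ab1 (1.18-fold). With 3 samples against 3, an exact permutation test cannot reach a two-sided p below 0.10, so these ratios are given as a description.

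**Figure D3:**
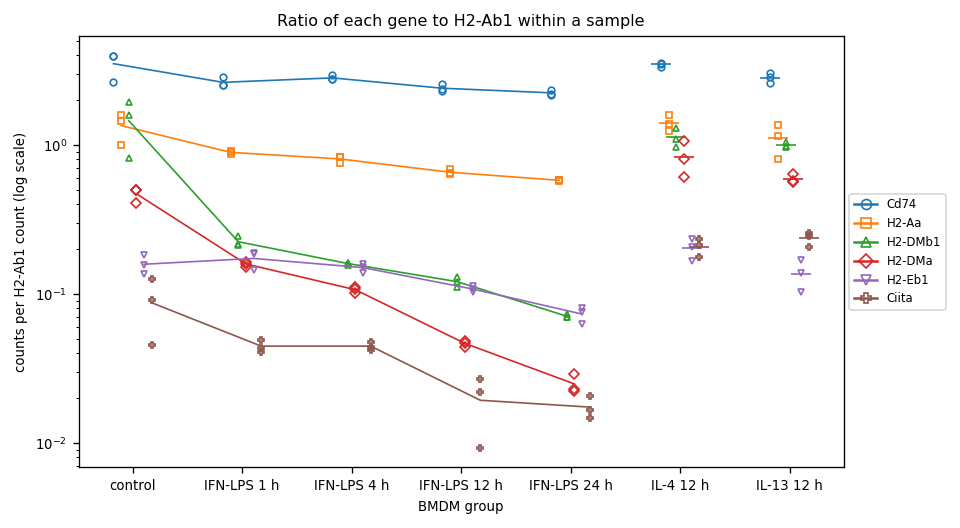
Counts of each of 6 class II genes per count of H2-Ab1 in the same sample, on a log axis, by BMDM group. Symbols are samples, lines join the group means of the control and the IFN-LPS times, and short bars mark the means with IL-4 and IL-13; the DM genes fall away from H2-Ab1 between 1 and 24 h (H2-DMa 0.159 to 0.0248), while Cd74 stays between 2.24 and 2.82 on average.

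Within the 12 IFN-LPS samples, the levels were also compared by Pearson's r on the log2(CPM + 1) scale. The correlation was 0.93 to 0.98 between H2-Aa, H2-DMa and H2-DMb1, and 0.915 to 0.945 between H2-Eb1 and these 3 genes. H2-Ab1 had a correlation of -0.20 with H2-Aa and -0.50 with H2-DMa. Cd74 had one of 0.35 with H2-Ab1 and of 0.39 to 0.55 with the other 5 genes, and Ciita one of 0.73 to 0.81 with H2-Aa, H2-Eb1 and the DM genes and of -0.26 with H2-Ab1. The 12 points share 4 time groups and the scaling of each library, and the values are a description only.

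In part of the genes, levels were slightly higher in the IL-4 and IL-13 BMDMs than in the control. These are 12 h cultures set against a control labelled 4 h, and their libraries also differ from the control in a property given below. Of the 6 genes with enough counts to test, 3 were called higher with IL-4 (H2-DMa, H2-Aa and Cd74) and 3 with IL-13 (H2-DMa, H2-Ab1 and Ciita), and none was called lower. H2-DMa and Ciita had enough counts for the test only through interleukin samples. The place of both among the tested genes thus depends on the groups where they are high. Of all 9252 genes tested, 2.22% were called higher and 1.64% lower with IL-4, and 2.98% and 2.38% with IL-13. The median log2 fold change of the 6 tested genes was 0.75 with IL-4 and 0.81 with IL-13, near the threshold of 0.7, so that the calls turned on small differences. Both comparisons share the control samples.

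H2-DMa stood at 19.7, 15.9 and 23.0 CPM with IL-4 and at 19.3, 18.8 and 14.1 CPM with IL-13, above its 5.35 to 9.31 CPM in the control samples. Its log2 fold change was 1.44 ± 0.28 (SE) with IL-4 (adjusted p = 1.3e-04, edgeR) and 1.24 ± 0.29 with IL-13 (adjusted p = 0.0011). The call with IL-13 ended without control replicate 1 (1.07, adjusted p = 0.014), and that with IL-4 held with any sample left out. Its partner H2-DMb1 had log2 fold changes of 0.41 ± 0.21 and 0.48 ± 0.21 and was not called, and the difference between both genes was not tested.

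H2-Aa stood at 38.8, 32.3 and 30.1 CPM with IL-4 and at 46.3, 26.8 and 25.3 CPM with IL-13, and all of these samples lay above the controls. The log2 fold change was 0.79 ± 0.21 with IL-4 (adjusted p = 0.0055, edgeR) and 0.69 ± 0.21 with IL-13 (adjusted p = 0.015), of which the first passed. The call with IL-4 did not hold with DESeq2 (adjusted p = 0.038) or when any one control or IL-4 sample was left out (0.011 to 0.060). H2-Ab1 stood at 24.3, 26.2 and 21.8 CPM with IL-4 and at 34.0, 33.0 and 22.0 CPM with IL-13, with log2 fold changes of 0.68 ± 0.23 and 0.94 ± 0.22, of which the second passed (adjusted p = 0.0011, edgeR). That call ended without control replicate 1 (0.011) or IL-13 replicate 2 (0.012).

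Cd74 stood at 86.9, 87.8 and 76.2 CPM with IL-4 and at 97.0, 85.5 and 67.0 CPM with IL-13. Its log2 fold changes, 0.71 ± 0.14 and 0.66 ± 0.14, lay on either side of the threshold of 0.7, while both adjusted p were small (9.8e-05 and 2.2e-04, edgeR). Ciita rested on 9, 10 and 6 counts with IL-4 and on 13, 12 and 10 counts with IL-13, against 1, 2 and 4 in the control. The log2 fold change was 1.82 ± 0.58 with IL-4 (adjusted p = 0.026) and 2.22 ± 0.54 with IL-13 (adjusted p = 0.0018, edgeR). With DESeq2 the second was 2.29 with an adjusted p of 0.017 and no longer passed. The call with IL-13 also ended without control replicate 1 (adjusted p = 0.023, edgeR) or control replicate 2 (0.012). H2-Eb1 had 4 to 10 counts per sample with either interleukin and was not tested there.

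The number of genes called with IL-13 ranged from 0, when control replicate 1 was left out, to 5, when IL-13 replicate 3 was left out. With IL-4 it was 1 when control replicate 3, IL-4 replicate 1 or IL-4 replicate 2 was left out, and H2-DMa was called in each. No class II gene differed between IL-13 and IL-4, against 0.0649% of all genes called in either direction, and none of the 6 had an unadjusted p under 0.05 (edgeR). The log2 differences ranged from -0.21 ± 0.23 (SE) for H2-DMa to 0.40 ± 0.40 for Ciita. The dendritic cell gene Itgax was also higher with the interleukins, at 323 CPM with IL-4 and 412 CPM with IL-13 against 168 CPM. The summed level of the 7 dendritic cell markers was 144 to 184 CPM in the control, 268 to 382 CPM with IL-4 and 301 to 495 CPM with IL-13. In each of these groups Itgax made up most of the sum, so the sum adds little to the change of this 1 gene. Flt3, Ccr7 and Cd209a were at or near 0 in these 9 samples, and the part of other cell types was not tested.

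The antisense share of Rn45s, a property of the libraries, was 0.0386% to 0.122% in the control, 1, 4 and 12 h samples and 0.00603% to 0.0214% in the 24 h, IL-4 and IL-13 samples. No label names a library batch, and the cause of the divide was not tested. Within the first side the share also differed, with 0.0386% to 0.0543% in the control and 0.0827% to 0.122% at 12 h. The comparisons of 24 h, IL-4 and IL-13 with the control, and of 24 h with 1 or 12 h, cross this divide. There, this library property and the treatment cannot be told apart. The comparisons of 1, 4 and 12 h with the control and of IL-13 with IL-4 lie within one side. In RAW264.7 the share was 0.0199% to 0.0283%, below the 0.0386% to 0.0543% of the control BMDMs, so RAW264.7 and control BMDMs differ in it too.

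At the labelled time of 12 h, all 7 genes were called higher with IFN-LPS than with IL-4 and with IL-13, where 8.58% and 8.59% of all 10612 genes were called higher. The length of the IFN-γ priming is not given, so exposure to IFN-γ may differ from 12 h. These comparisons also cross that divide. The plain ratio of mean CPM against IL-4 was 65.9 for H2-Ab1, 45.5 for Cd74, 35.2 for H2-Eb1 and 30.8 for H2-Aa. It was 7.03 for H2-DMb1, 6.26 for Ciita and 3.78 for H2-DMa, the gene with the smallest difference. Against IL-13 the log2 fold change ran from 2.46 ± 0.16 (SE) for H2-DMa to 6.12 ± 0.12 for H2-Ab1. For each count of H2-Ab1, Ciita had 0.208 ± 0.029 counts (SD, n = 3) with IL-4 and 0.236 ± 0.026 with IL-13, against 0.0193 ± 0.0090 with IFN-LPS at 12 h and 0.0871 ± 0.0399 in the control, and the interleukin samples lay above all control and IFN-LPS samples.

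RAW264.7 cells had Cd74 but hardly any of the other class II genes. H2-Aa, H2-Ab1, H2-Eb1 and Ciita stood at 0 counts in all 4 libraries, and H2-DMb1 had 1 count in 2 of them. With 3 counts over the 2 control libraries as the floor, the level of control BMDMs was at least 28.0-fold higher for H2-Aa, at least 21.5-fold for H2-Ab1, at least 3.39-fold for H2-Eb1 and at least 1.97-fold for Ciita. H2-DMa had 4 and 6 counts in the control and 8 and 6 counts with LPS (1.84, 2.81, 3.72 and 2.51 CPM). Reads from the polymorphic class II genes of a line with another MHC haplotype can align less well to the C57BL/6 reference, which was not tested. The macrophage marker Mertk was also at 0 in RAW264.7, and C1qa stood at 2.18 to 2.56 CPM as a group mean.

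Cd74 stood at 403 and 373 CPM in the RAW264.7 control and at 348 and 382 CPM with LPS, and both groups overlapped. Cd74 was the only member with enough counts to be tested there and was not called (log2 fold change 0.09 ± 0.08 (SE), adjusted p = 0.38, edgeR), where 2.39% of all 9406 genes tested were called higher and 0.829% lower. Without TMM the estimate was -0.09. Against control BMDMs, Cd74 was higher in the RAW264.7 control by a log2 fold change of 2.68 ± 0.11, and 4 members were called lower (H2-Aa, H2-Ab1, H2-Eb1 and H2-DMb1), where 9.67% of all genes were called higher and 13.3% lower. H2-Eb1, with 3 to 5 counts per control BMDM sample and 0 in RAW264.7, passed the count filter only through groups outside this comparison. Its call rests on these few counts. H2-DMa, 3.05-fold lower in mean CPM, did not reach the threshold of 2 on the log2 scale (-1.83 ± 0.44). The cells, the medium, the mouse strain and the antisense share of Rn45s differ together in this comparison.

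The response of RAW264.7 to LPS at 4 h was smaller than that of BMDMs to IFN-LPS at 4 h for 2 members that had counts in every library, Cd74 with a log2 difference of -6.78 ± 0.16 (SE) and H2-DMa with -4.40 ± 0.71, where 7.16% of all genes were called lower. RAW264.7 did not receive IFN-γ, so the treatment and the cells cannot be told apart. For the 4 genes at 0 in RAW264.7, no difference in response could be measured.

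Of 12 accessory genes of class II presentation, 11 were in the files and 6 had enough counts to test in BMDMs. March1, a membrane ubiquitin ligase known to remove class II molecules from the cell surface, rose at 12 and 24 h, and Lgmn, an endosomal protease, fell at 24 h. March1 stood at 62.4, 62.0 and 61.1 CPM in the control, at a mean of 58.4 CPM at 1 h and at 14.0, 19.5 and 22.3 CPM at 4 h. It then stood at 458, 470 and 678 CPM at 12 h and at 260, 302 and 364 CPM at 24 h. March1 had a log2 fold change against control of -1.19 ± 0.26 (SE) at 4 h, under the size threshold, and 3.43 ± 0.17 at 12 h and 2.54 ± 0.17 at 24 h (adjusted p of 1.1e-13 and 2.8e-11, edgeR). Lgmn went from a mean of 1084 CPM in the control to 290.5 CPM at 24 h (log2 fold change -1.68 ± 0.09). Ctss, the protease that trims Cd74, was high throughout BMDMs, with means of 6434 to 10915 CPM, and was not called against control at any time. The remaining class II genes were nearly silent, with group means of at most 4.67 CPM for H2-Oa, 3.45 CPM for H2-Ob and 0.88 CPM for H2-Eb2.

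Among 17 genes that regulate class II transcription, 16 were tested in the time course, and 4 rose at 1 h, 6 at 4 h and 4 at both 12 and 24 h, with none lower past the thresholds. The shares of all genes called higher were 5.04%, 11.4%, 8.87% and 7.93%, and those called lower 2.08%, 11.4%, 8.42% and 6.93%, in order of time. Irf1, Jak2 and Rfx5 were among those called at all 4 times and Irf2 and Irf8 at 4 h. Irf1, an interferon-induced factor that acts on the IFN-γ-responsive promoter of Ciita, stood at 54.1, 49.5 and 41.9 CPM in the control and at 1403, 1528 and 1533 CPM at 1 h. It stood at 1712, 1702 and 1546 CPM at 4 h, at 391, 405 and 406 CPM at 12 h and at 278, 297 and 301 CPM at 24 h. Irf1 thus was highest at 1 and 4 h, as was Ciita.

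Jak2, the kinase bound to the IFN-γ receptor, went from a mean of 66.4 CPM in the control to 230 CPM at 1 h, 1096 CPM at 4 h, 808 CPM at 12 h and 612 CPM at 24 h. Rfx5, a subunit of the factor on the X box, stood at 10.1, 10.7 and 12.2 CPM in the control and had a mean of 31.2 CPM at 1 h and 41.3 CPM at 4 h, with a log2 fold change of 2.42 ± 0.21 (SE) at 4 h (adjusted p = 2.5e-14, edgeR). Its partners Rfxap and Rfxank were not called against control at any time, with log2 fold changes of -1.34 to -1.04 for Rfxap, under the size threshold. Irf8 went from 105 CPM in the control to 68.7 CPM at 1 h, 417 CPM at 4 h and 36.3 CPM at 12 h, and only the 4 h value was called.

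With IL-4 and IL-13, 3 of the 17 regulators rose in each comparison, and they were Irf1, Irf4 and Jak2 both times, where 2.22% of all genes were called higher with IL-4 and 2.98% with IL-13. Irf1 had a log2 fold change of 0.85 ± 0.13 (SE) with IL-4 and 0.89 ± 0.13 with IL-13, and Jak2 one of 1.19 ± 0.11 and 1.68 ± 0.11. Irf4, a factor of alternative activation, stood at 2.38, 1.19 and 0.58 CPM in the control, at a mean of 9.27 CPM with IL-4 and at 23.8, 31.3 and 25.3 CPM with IL-13. Irf4 also differed between the interleukins (log2 difference 1.49 ± 0.25, SE), the only regulator past the size threshold of 0.7, while Jak2, with 0.49 ± 0.10, passed the adjusted p alone (0.0078, edgeR). Rfx5, by contrast, had a log2 fold change of -0.15 ± 0.29 with IL-4 and did not pass the test. In RAW264.7 none of the 17 regulators reached the size threshold of 2 with LPS, where 2.39% of all genes were called higher and 0.829% lower. At the adjusted p alone 5 were higher and 1 lower, against 15.1% and 12.8% of all genes. Among the 5 was Jak2, with a log2 fold change of 1.96 ± 0.13 (SE). Irf1 was not among them and stood at 29.8 and 25.7 CPM in the control and 28.3 and 26.3 CPM with LPS.

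**Figure D4:**
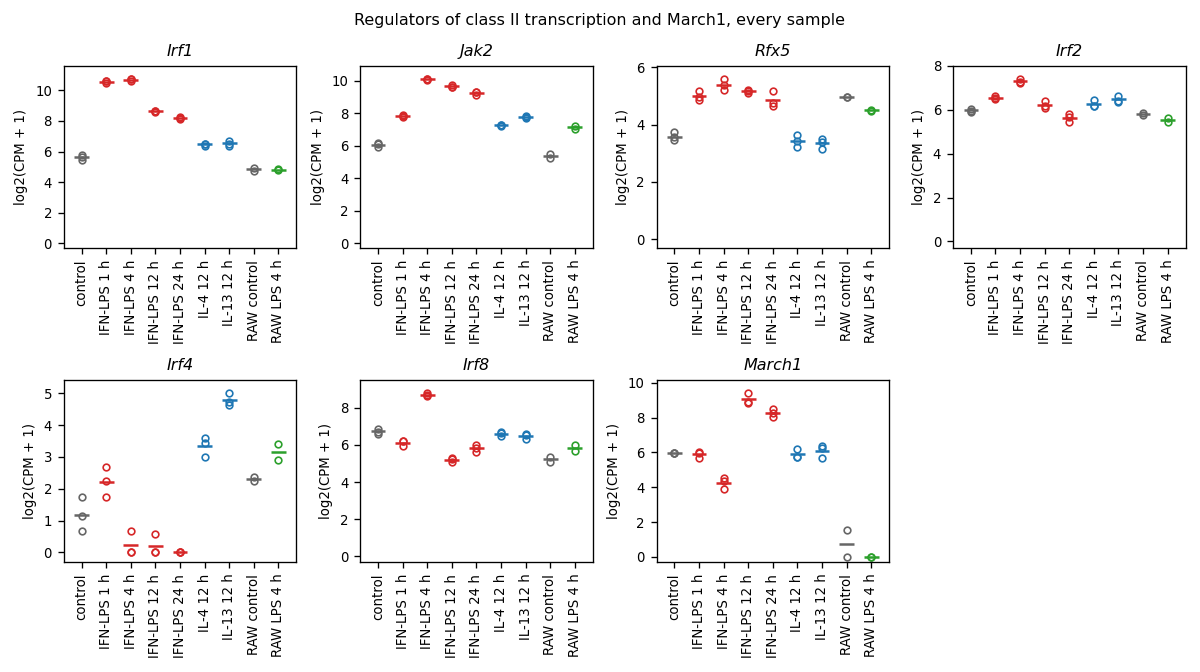
Level of 6 regulators of class II transcription and of March1 in all 25 samples, as log2(CPM + 1), by condition (grey, control; red, IFN-LPS; blue, IL-4 or IL-13; green, RAW264.7 with LPS). Circles are samples and bars are group means; Irf1 is highest at 1 and 4 h, Jak2 at 4 h, Irf4 with IL-13 and March1 at 12 h.

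The genes whose pattern over the 21 BMDM samples was most like the mean of the 6 members other than Ciita were Gbp2 (r = 0.995), Socs3, Mir155hg, Slfn2 and Cxcl9 (r = 0.985), among 7696 genes with at least 10 CPM on average, from which the members were left out. Gbp2, an interferon-induced GTPase, had a mean of 2.94 CPM in the control, 2460 CPM at 1 h and 893 CPM at 24 h. For Ciita they were Zc3h12a (r = 0.948), Tnip3 (0.947), Irf1 (0.944), Nampt (0.942) and Tnfaip3 (0.941). The r is Pearson's on log2(CPM + 1). The 21 samples fall into 12 high and 9 low ones, so that any gene with a large change in IFN-LPS scores high, and the r is a description. With the 7 group means in place of samples, 4 of the 5 genes like the 6 members and 3 of the 5 like Ciita were again among the first 5.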

How the data were processed

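RNA-seq was done on rRNA-depleted RNA with a directional kit. Reads were trimmed (Trimmomatic 0.33) and aligned to mm10 (STAR 2.5.1), and the authors deposited raw counts per gene symbol for each sample, without normalization (versions from the submitters' processing notes; the annotation release is not given in the sources used here). Only uniquely aligned reads enter these counts. The counts on the gene's strand were used, with 118 times the total of the opposite strand. They summed to 2378639 to 3357300 per sample on genes. Levels are CPM without Rn45s. The counts of replicates differed by more than counting 1 library again would give (chi-square per degree of freedom 1.33 to 4.93, 23 pairs). This does not tell separate cultures from separate RNA samples of 1 culture. At 12 h of IFN-LPS, replicate 3 differed more from replicates 1 and 2 (4.93 and 3.93) than these did from each other (1.33).

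Tests used edgeR 4.0.16 in R 4.3.3 (filterByExpr, TMM, robust quasi-likelihood fit, Benjamini-Hochberg over all genes tested) in 4 fits: control with IFN-LPS (15 samples, 9568 genes), control with IL-4 and IL-13 (9 samples, 9252 genes), RAW264.7 (4 samples, 9406 genes) and all 25 samples (10612 genes) for comparisons across these sets. The SE of a log2 fold change is its size divided by the root of F. Alternatives were DESeq2 1.42.0, no TMM, Rn45s kept, other filters on low counts, unstranded counts, FDR alone, the replicate number as a block, only the groups compared, and leaving out each sample. The scripts were tested on simulated data. Named genes are the 7 members, genes of the accessory and regulator lists (those called against a control; Ctss, Rfxap, Rfxank and the other class II genes were named after their values were seen) and the 5 genes most like the members and like Ciita. The members and lists were chosen with earlier results of these data known. Results for some genes of the lists are not reported here.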

Additional observations from a re-analysis of the deposited data

Results flagged for a closer look

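The response of Cd74 to LPS at 4 h in RAW264.7 and its response to IFN-LPS at 4 h in BMDMs differed in a test of the difference itself (log2 difference -6.78, RAW264.7 minus BMDM). For H2-DMa the same test gave -4.40, with 4 to 8 counts per RAW264.7 library. The treatments differ between the cells, since RAW264.7 received LPS alone. No test for a sample far from the others was made in groups of 2 or 3.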

How the results depend on the processing

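Of 371 counts of class II genes called under an alternative, 352 stayed within 1.5 times the reported count. Requiring at least 10 counts in every sample left fewer genes to test and gave 4 called at each IFN-LPS time, 1 with IL-13, and 1 each for 12 h against IL-4, 12 h against IL-13, RAW264.7 against BMDM and the difference in response. FDR alone gave 2 genes from 1 to 4 h, 5 from 4 to 12 h and 5 from 12 to 24 h. DESeq2 gave 5 for the difference in response, 3 of them genes at 0 in RAW264.7. With one sample left out, the count ranged from 0 to 1 from 4 to 12 h (1, Ciita at -1.52, without 12 h replicate 2), from 1 to 3 with IL-4, from 0 to 5 with IL-13 and from 5 to 6 for RAW264.7 against BMDM. No sign changed for a called value. From 4 to 12 h, H2-Ab1 was 0.21 without TMM, 0.012 with no filter beyond 1 count, 0.053 with at least 10 counts, 0.028 with only these groups and -0.086 to 0.057 with a sample left out. From 1 to 4 h, H2-Aa was -0.10 and H2-Eb1 -0.16 without TMM. Between IL-13 and IL-4 with a sample left out, H2-Aa ranged from -0.41 to 0.055, H2-DMb1 from -0.073 to 0.26 and Cd74 from -0.17 to 0.084. In RAW264.7, Cd74 was -0.088 without TMM. The cause was not tested. Without TMM the median of all genes against control moved to -0.21, -0.60, -0.34 and -0.20 in order of time, and the genes called higher and lower went from 1086 and 1094 to 787 and 1907 at 4 h, from 482 and 199 to 427 and 289 at 1 h, from 849 and 806 to 705 and 1161 at 12 h and from 759 and 663 to 657 and 861 at 24 h; all 7 class II genes stayed called. Same-numbered samples deviated together little in the time course (mean r 0.02 over 30 pairs, from -0.07 to 0.18, with 3 over 0.1). Samples of unlike number had a mean r of -0.01 over 60 pairs, with 2 over 0.1. The replicate block gave the reported number of members called in all 15 comparisons (7 at each IFN-LPS time, 3 with each interleukin). At 1 to 16 control counts, the changes of Ciita, H2-Eb1 and H2-DMa are the least precise.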
